A study of Mus musculus with 9 samples.

Results

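The genes described here encode 10 purinergic P2 receptors of the mouse, P2rx2, P2rx3, P2rx4, P2rx5, P2rx6, P2rx7, P2ry1, P2ry2, P2ry6 and P2ry12, out of 27670 genes on the array. They were chosen by name, and their probes were found by gene symbol, by an older symbol (P2rx6 is listed under its older symbol P2rxl1) or by RefSeq accession. The samples were total RNA of L3/L4 dorsal root ganglia (DRG) of adult mice, 4 uninjured and 5 taken 3 days after transection of the sciatic nerve. All 9 carried the labels cre.neg and jun.wt, so neither group was a mutant. The labels and methods give this time and a transection, whereas the study's results text gives an earlier time and a legend names a crush. The methods give L3/L4 ganglia for the arrays, whereas the results text and the legend of a heat map give L4 alone. The labels name no animals, and the array methods do not say whether the uninjured ganglia came from other mice or from the uncut side of the injured ones, which the study used as controls in its nerve crush experiments, so p-values measure the spread between these samples, which may in part be technical.

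P2 receptors are opened or activated by nucleotides outside the cell. P2X receptors are channels of several subunits that ATP opens to cations, and P2Y receptors are coupled to G proteins and respond to ATP, ADP, UTP or UDP. In sensory ganglia P2rx3 marks nociceptors, above all the non-peptidergic ones, and forms channels alone or with P2rx2. P2ry12, P2rx7, P2rx4 and P2ry6 are known from microglia and macrophages, and satellite glia around the neurons also have P2 receptors.

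Each DRG sample was labelled with Cy5 and hybridised with a universal mouse reference RNA labelled with Cy3. Values are therefore log2 ratios of DRG over reference, and those of different probes were not ranked against each other. Median Cy5 signals lay between 156 and 238 and the probes above background between 71.0% and 78.9%, and the number of arrays limits the precision. Atf3, a transcription factor that axotomised neurons switch on, lay between −1.09 and −0.90 on uninjured and between 4.03 and 4.25 on injured arrays, so every array fell where its label puts it. Of the 10 markers of sensory neurons all were measured, with a mean log2 ratio between 5.41 and 5.88 on every array. The mean of 5 skeletal muscle genes stood at 0.99 on injured array 2 and 2.49 on injured array 4, against −0.93 to −0.51 on the other 7, and the means of 3 neutrophil genes (5.32) and 4 red blood cell genes (5.09) were highest on injured array 2. The arrays lie on 3 slides. The first holds uninjured arrays 2, 3 and 4, the second uninjured array 1 with injured arrays 1, 2 and 5, and the third injured arrays 3 and 4, so slide and injury overlap in large part.

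All 10 receptor genes passed the filter on dim probes, with 16 probes. After transection P2ry6 and P2rx5 rose, P2ry1 fell, and the other 7 did not pass the test. The 3 called genes are 30.0% of the members, and limma called 25.3% of the 20898 genes tested at an adjusted p under 0.05 (Benjamini-Hochberg), 11.4% higher and 13.9% lower. The members' share was therefore near that of all genes. Of the genes tested 16494 had a known symbol. The rest, like others among the 27670 on the array, were counted under the name in the files. The members' median log2 fold change was 0.07, against 0.00 for all genes, and the median size of the change without its sign was 0.15, against 0.14. The injured and uninjured arrays did not overlap for 2 of the 10 receptors, P2rx5 and P2ry1, and for 23.8% of all genes.

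**Figure D1:**
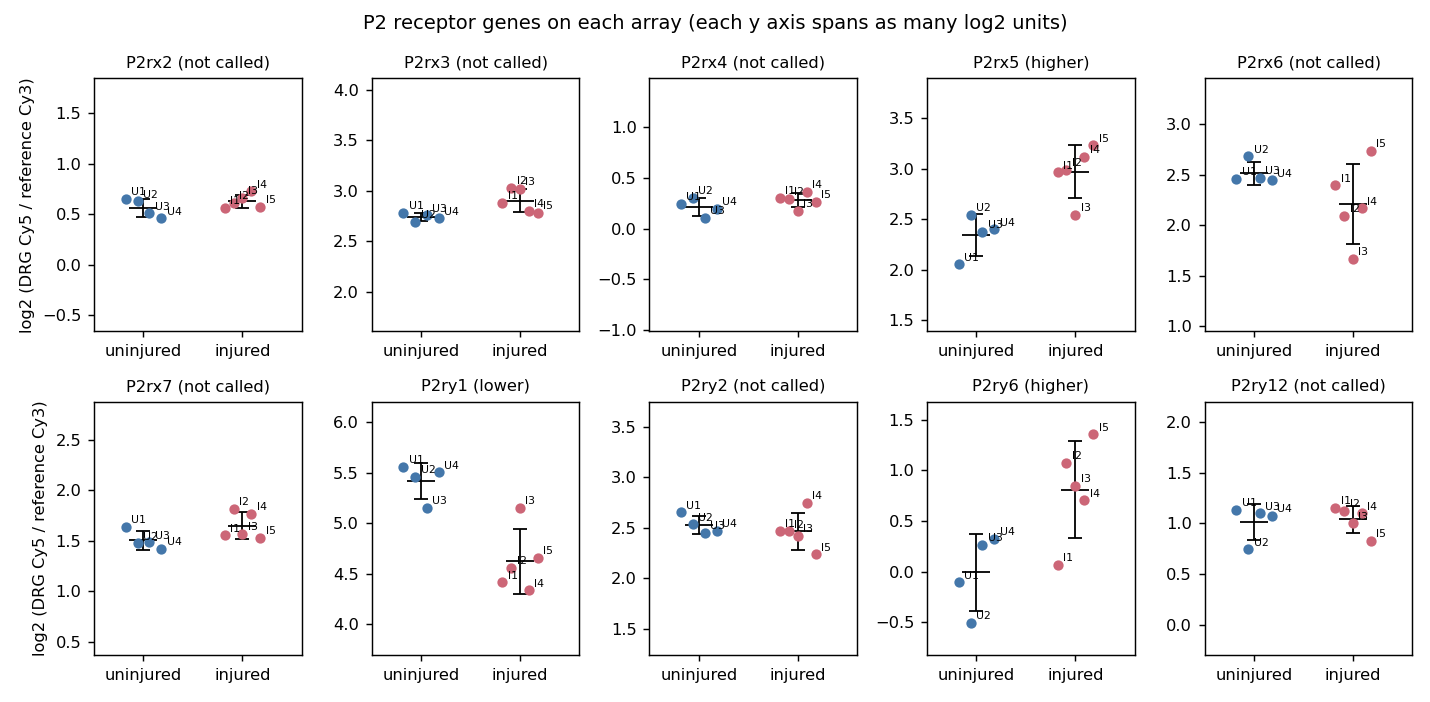
Log2 ratio of DRG (Cy5) over reference (Cy3) for the brightest probe of each P2 receptor gene, with every array as a point (U1 to U4 uninjured, I1 to I5 injured) and bars for the mean ± SD. Every y axis spans as many log2 units as the others, so the rise of P2rx5 and P2ry6 and the fall of P2ry1 can be set against the narrow spread of P2rx2, P2rx3, P2rx4 and P2rx7.

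The largest fall was that of P2ry1, the Gq-coupled ADP receptor found on sensory neurons among other cells. Its brightest probe (mm7, chr3:61165214-61165273, plus strand) read 5.56, 5.46, 5.15 and 5.50 on uninjured arrays 1 to 4, and 4.42, 4.56, 5.15, 4.34 and 4.65 on injured arrays 1 to 5. Injured array 3 stood level with the lowest uninjured array to the second decimal, and the other 4 injured arrays lay clearly below. P2ry1 fell by 0.80 on the log2 scale (SE 0.155, 95% interval −1.14 to −0.45), or 1.74-fold, with an adjusted p of 0.00383 by limma. An exact permutation test (two-sided, all 126 ways to split the 9 arrays) gave p = 0.0159, where the smallest possible value is 0.00794.

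A second P2ry1 probe (mm7, chr3:61160681-61160740) was compared in a fit of all 31186 probes, of which 23.4% were called, 10.5% higher and 12.9% lower. It read 1.33, 1.18, 0.94 and 1.10 on uninjured and 0.55, 0.85, 0.85, 0.45 and 0.36 on injured arrays. The groups again did not overlap, as for 12.4% of all probes in this direction, and the probe fell by 0.52 on the log2 scale (SE 0.120, limma adjusted p 0.00966). Its reference channel was above background on only 2 arrays, so this ratio rests on a dim denominator. The call of the brightest probe was lost with Agilent's own ratio, which has another background model and dye normalization (−0.67, limma adjusted p 0.0561), and with slide as a fixed block (−1.01, limma adjusted p 0.0750), and held with slide as a random block (−0.77, limma adjusted p 0.000766). The random block called 7361 genes in all, more than the 5285 of the main fit. The fixed block rests on the slide shared by both groups, where the 3 injured arrays lay 1.01 below the 1 uninjured array.

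P2ry12 is the other ADP receptor of the set, coupled to Gi and best known from microglia and platelets. Its probe (mm7, chr3:59344780-59344839, minus strand) read 1.13, 0.74, 1.10 and 1.08 on uninjured and 1.16, 1.12, 1.00, 1.10 and 0.83 on injured arrays. The groups lay on top of each other, with 1 lower array in each. The log2 fold change was 0.03 (SE 0.0972, limma adjusted p 0.873), with a 95% interval of −0.19 to 0.24. Its reference channel was above background on only 2 arrays, so this interval too rests on a dim denominator. The sign of this change turned under 5 alternatives, with values down to −0.11. The highest value was 0.27, above this interval, with Agilent's own ratio (limma adjusted p 0.59).

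The promoters of these genes are shown because 1 of the 2 ADP receptors was called and the other was not, a difference that was itself not tested. Each is a RefSeq window (GRCm38.p6) from 250 bases before to 50 after the start of the transcript, 5′ to 3′ on the gene's own strand. P2ry1 lies at chr3:61002535-61002834 on the plus strand and P2ry12 at chr3:59262936-59263235 on the minus strand. Both were searched on both strands for the AP-1 motif TGACTCA, the cAMP-response element TGACGTCA and a PU.1 motif, GAGGAAGT. These occur in 5.20%, 1.79% and 3.20% of the 32851 RefSeq promoters of this length, and none of them overlapped in the windows printed here.
P2ry1: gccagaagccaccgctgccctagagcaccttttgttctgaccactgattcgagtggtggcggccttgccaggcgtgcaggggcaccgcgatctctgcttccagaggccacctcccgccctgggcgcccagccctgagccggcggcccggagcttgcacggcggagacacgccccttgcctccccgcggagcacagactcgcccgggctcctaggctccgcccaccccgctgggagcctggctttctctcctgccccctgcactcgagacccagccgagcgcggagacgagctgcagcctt
P2ry12: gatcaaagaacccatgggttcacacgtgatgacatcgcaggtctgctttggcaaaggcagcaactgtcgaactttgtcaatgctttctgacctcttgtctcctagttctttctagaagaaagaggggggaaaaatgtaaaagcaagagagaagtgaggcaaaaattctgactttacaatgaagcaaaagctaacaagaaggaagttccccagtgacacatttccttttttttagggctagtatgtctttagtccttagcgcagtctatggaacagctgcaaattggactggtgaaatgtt
Neither window holds any of these letters, and so neither has capitals. The P2ry1 window is 70.7% G and C, that of P2ry12 42.3%. Promoter windows were at hand for 6 of the 10 receptors.

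Among the P2X subunits P2rx5 rose. Its channel subunit is one of those found in sensory ganglia. The probe (mm7, chr11:73253734-73253793, plus strand) read 2.06, 2.54, 2.38 and 2.40 on uninjured arrays and 2.97, 2.99, 2.54, 3.12 and 3.23 on injured arrays. Injured array 3 again stood level with an uninjured array, here array 2, and the other 4 injured arrays were higher. The rise was 0.63 on the log2 scale (SE 0.139, 95% interval 0.32 to 0.93), or 1.54-fold, with a limma adjusted p of 0.00786 and p = 0.0159 in the two-sided exact permutation test. It was 0.48 (limma adjusted p 0.112) when spots with an outlier flag were kept and 1.01 under a fixed block for slide (limma adjusted p 0.0301). That block rests on the slide with both groups, so the difference of 1.01 there is the same comparison, of 3 injured arrays with 1 uninjured array. P2rx5 has 1 probe, so no second measurement stands beside it.

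P2rx3, the nociceptor subunit, did not pass the test. Its probe (mm7, chr2:84842457-84842516, minus strand) read 2.78, 2.69, 2.76 and 2.73 on uninjured and 2.88, 3.03, 3.02, 2.80 and 2.78 on injured arrays. The groups overlapped only because injured array 5 lay below uninjured array 1. The log2 fold change was 0.16 (SE 0.0683, 95% interval 0.01 to 0.31, limma adjusted p 0.112), and the exact permutation test, before any adjustment, gave p = 0.0476. It was called only with slide as a random block (0.17, limma adjusted p 0.0310). Its second probe, of a separate cDNA (mm7, chr2:84839941-84840000), changed by 0.09 (limma adjusted p 0.516), with its reference channel above background on 0 arrays. The interval of the brightest probe leaves out a fall of the size of P2ry1's.

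Most of the tested genes that mark the same neurons did fall. Of 5 genes of non-peptidergic nociceptors 4 were tested, with 3 lower and 1 higher and a median log2 fold change of −0.60. The lysophosphatidic acid receptor gene Lpar3 fell by 1.07 on the log2 scale, Gfra2, a receptor for neurturin, by 0.75 and the sodium channel gene Scn11a by 0.45 (limma adjusted p 0.00707 or smaller for each). Ret, the signalling partner of Gfra2, rose by 0.27 (limma adjusted p 0.0150). P2rx3 minus the mean of the 4 genes was −0.33 ± 0.131 (SD, n = 4) on uninjured and 0.33 ± 0.148 (SD, n = 5) on injured arrays, a difference of 0.66. This difference was computed after the values of the list had been seen and is given as a description. Against the mean of the 10 general neuron markers, of which Elavl4 and Isl1 fell and 8 did not pass, P2rx3 moved by 0.24 (exact permutation p = 0.111, adjusted p = 0.143 over 5 such comparisons). In RNA from whole ganglia, fewer cells of a type and less RNA per cell cannot be told apart.

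**Figure D2:**
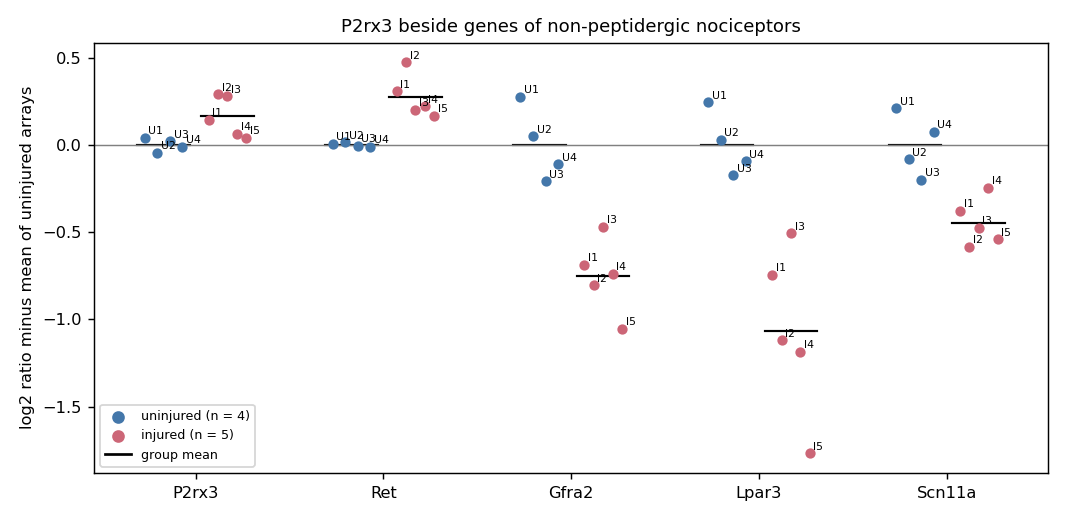
Log2 ratio of P2rx3 and of 4 genes of non-peptidergic nociceptors on each array, after subtraction of the mean of the uninjured arrays, with a line at each group mean. Every injured array lies below every uninjured array for Gfra2, Lpar3 and Scn11a, and above for Ret, whereas P2rx3 stays between −0.05 and 0.29 on this scale.

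P2rx2, which joins P2rx3 in heteromeric channels, read 0.46 to 0.65 on uninjured and 0.57 to 0.73 on injured arrays. These ranges overlap, and the log2 fold change was 0.07 (95% interval −0.07 to 0.21, limma adjusted p 0.494). P2rx6 encodes a subunit that forms poor channels alone and assembles with others. It read 2.46, 2.68, 2.47 and 2.44 on uninjured and 2.39, 2.09, 1.67, 2.17 and 2.73 on injured arrays. Injured arrays 1 to 4 were below every uninjured array and injured array 5 above them all, which is the widest spread of any P2X gene here (SD 0.393). The log2 fold change was −0.30 (SE 0.174, limma adjusted p 0.241). Without injured array 5 it was −0.43 and passed the test (limma adjusted p 0.0413), and without injured array 3 it was −0.17 (limma adjusted p 0.411). Under a fixed block for slide it was −0.05 and with slide as a random block −0.29 (limma adjusted p 0.166). Its second probe, above background on 4 of the 9 arrays, changed by 0.02.

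Of the 4 receptors known from macrophages and microglia P2ry6 passed the test. This receptor, which UDP activates, had the largest rise of the set. Its probe (mm7, chr7:96983881-96983940, minus strand) read −0.11, −0.51, 0.26 and 0.32 on uninjured and 0.07, 1.07, 0.85, 0.70 and 1.36 on injured arrays. Injured arrays 2 to 5 were above every uninjured array and injured array 1 lay among them. P2ry6 rose by 0.82 on the log2 scale (SE 0.247, 95% interval 0.27 to 1.37), or 1.76-fold, with a limma adjusted p of 0.0342 and p = 0.0317 in the two-sided exact permutation test.

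The P2ry6 call was close to the threshold. It was lost without uninjured array 1 (limma adjusted p 0.0848) or 2 (0.0937), and without injured array 2 (0.0741), 3 (0.0607), 4 (0.0574) or 5 (0.0573), with log2 fold changes between 0.65 and 0.84. Without injured array 1 the log2 fold change was 1.00 (limma adjusted p 0.00552). A fixed block for slide, which rests on the mixed slide, gave a log2 fold change of 0.94 (limma adjusted p 0.30). With slide as a random block the log2 fold change was 0.79 (limma adjusted p 0.00853). That setting called more genes in all than the main fit, so it was not a stricter check.

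P2ry6 and the macrophage markers shared the ends of their ranking of arrays. All 15 listed macrophage genes passed the filter on dim probes, 3 of them rose (Aif1, Itgam and Cd14), 12 did not pass, and the median log2 fold change was 0.70. The mean of the list ran from −0.88 to −0.10 on uninjured and from −0.38 to 0.65 on injured arrays. In both groups P2ry6 and the list ranked alike at the ends, with uninjured array 2 lowest and 4 highest, injured array 1 lowest and injured arrays 2 and 5 highest. Among injured arrays the means of the red blood cell and satellite glia lists were also lowest on array 1 and highest on arrays 2 and 5. The order of the injured arrays was therefore not particular to macrophage markers. On injured array 3, P2ry6 lay 0.86 above its uninjured mean and the macrophage list 0.32 above its own. P2ry6 minus the list was 0.43 ± 0.0478 (SD, n = 4) on uninjured and 0.67 ± 0.240 (SD, n = 5) on injured arrays, a difference of 0.24 (exact permutation p = 0.111, adjusted p = 0.143). The part of macrophage number in the rise of P2ry6 was not tested.

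P2rx4, an ATP-gated channel of endosomes and lysosomes that microglia raise after nerve injury, did not pass the test. It read 0.25, 0.30, 0.10 and 0.20 on uninjured and 0.30, 0.30, 0.18, 0.37 and 0.27 on injured arrays, with a log2 fold change of 0.07 (95% interval −0.07 to 0.21, limma adjusted p 0.467) and 0.11 for its second probe (limma adjusted p 0.430). The spread within each group was as large as the change. Set against the macrophage list on each array, P2rx4 changed by −0.51 (exact permutation p = 0.119), P2rx7 by −0.43 (p = 0.143) and P2ry12 by −0.55 (p = 0.0873), each with an adjusted p of 0.143. So none of these receptors was shown to differ from the list, whose own spread between arrays was wide.

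**Figure D3:**
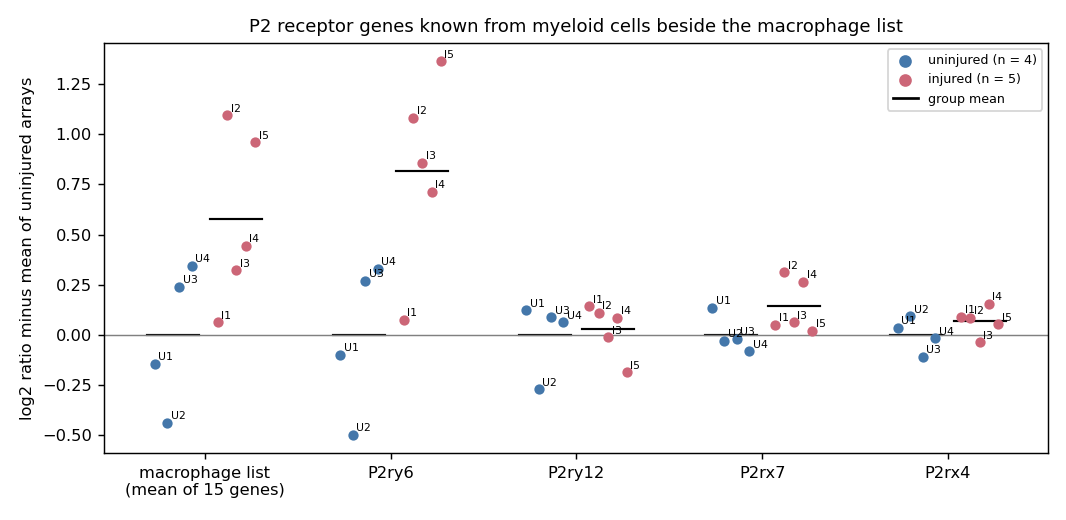
Log2 ratio of the macrophage list (mean of 15 genes) and of P2ry6, P2ry12, P2rx7 and P2rx4 on each array, after subtraction of the mean of the uninjured arrays, with a line at each group mean. P2ry6 and the list are both lowest on uninjured array 2 and, among injured arrays, lowest on array 1 and highest on arrays 2 and 5, while P2ry12, P2rx7 and P2rx4 stay between −0.27 and 0.31.

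P2rx7, the channel that needs much ATP to open and triggers release of interleukin-1 from macrophages, read 1.64, 1.48, 1.49 and 1.43 on uninjured and 1.56, 1.82, 1.57, 1.77 and 1.53 on injured arrays (mm7, chr5:121918407-121918466, plus strand). Injured arrays 2 and 4 were the highest, and the other 3 lay below uninjured array 1. The log2 fold change was 0.14 (SE 0.0799, 95% interval −0.04 to 0.32, limma adjusted p 0.232). A second probe, which spans 2886 bases in the file (mm7, chr5:121904741-121907626), changed by 0.03 (limma adjusted p 0.858). Neither probe was called.

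The RefSeq table holds 2 start sites of P2rx7, and its windows are shown because they alone among the 8 of the receptors carried a match, marked by capitals. The first (GRCm38.p6, chr5:122643677-122643976, plus strand) has an AP-1 motif on the opposite strand at −249 from the start, and the second (chr5:122650133-122650432, plus strand) a PU.1 motif on the opposite strand at position 3.
P2rx7, first start: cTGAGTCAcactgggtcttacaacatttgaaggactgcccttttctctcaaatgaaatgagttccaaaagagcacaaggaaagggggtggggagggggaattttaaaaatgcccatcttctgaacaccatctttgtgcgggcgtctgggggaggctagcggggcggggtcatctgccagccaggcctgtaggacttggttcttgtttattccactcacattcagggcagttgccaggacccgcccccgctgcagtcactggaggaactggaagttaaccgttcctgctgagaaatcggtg
P2rx7, second start: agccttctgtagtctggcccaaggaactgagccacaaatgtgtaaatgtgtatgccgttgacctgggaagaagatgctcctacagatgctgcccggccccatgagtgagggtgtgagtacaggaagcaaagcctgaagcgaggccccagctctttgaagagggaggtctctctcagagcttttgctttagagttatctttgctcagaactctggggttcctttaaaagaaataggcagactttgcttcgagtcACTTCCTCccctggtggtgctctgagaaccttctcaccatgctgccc
A match describes letters in the window and does not show a bound site, and P2rx7 itself did not pass the test.

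The neuronal and myeloid members were also compared directly, in 3 pairs. P2ry12 minus P2rx3 was −1.73 ± 0.149 (SD, n = 4) on uninjured and −1.86 ± 0.139 (SD, n = 5) on injured arrays, a difference of −0.13 (exact permutation p = 0.198, adjusted p = 0.417). P2rx7 minus P2rx3 changed by −0.02 (exact permutation p = 0.810, adjusted p = 0.810), and P2ry12 minus P2rx7 by −0.11 (exact permutation p = 0.278, adjusted p = 0.417). No pair was shown to differ in its change, and the sign of each turned under at least 1 alternative.

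P2ry2, the receptor for ATP and UTP of neurons and glia, read 2.45 to 2.65 on uninjured and 2.24 to 2.75 on injured arrays. The injured arrays spread to both sides of the uninjured ones, with array 4 highest and array 5 lowest. Its log2 fold change was −0.06 (95% interval −0.27 to 0.15, limma adjusted p 0.697), and that of its second probe −0.03 (limma adjusted p 0.877).

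**Figure D4:**
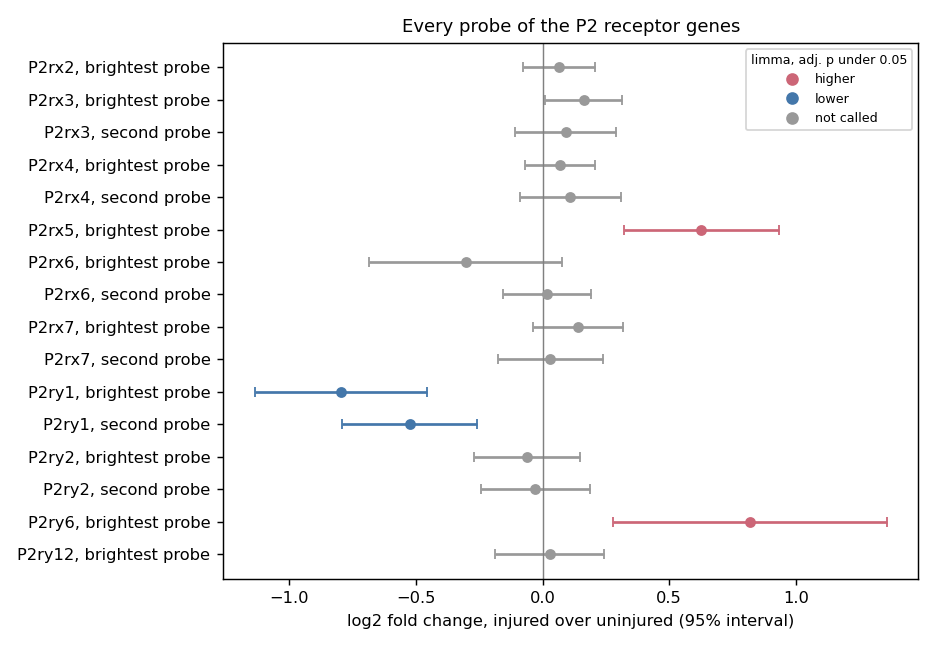
Log2 fold change, injured over uninjured, with its 95% interval for each of the 16 probes of the P2 receptor genes (limma, fit of all probes). Both P2ry1 probes lie below 0, the single probes of P2rx5 and P2ry6 above, and no second probe of another gene was called.

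Around the receptors, 29 further genes of purinergic signalling were listed, and 23 of them were tested. The test called 3 higher and 3 lower, 26.1% of those tested against 25.3% of all genes, with a median log2 fold change of 0.09. The list's share was therefore near that of all genes. Of the 10 tested nucleotide-degrading enzymes 1 was called higher and 1 lower. Of the 4 tested genes of adenosine handling 2 were called in each direction. These classes hold most of the tested genes, so the place of the calls is given as a description. Of 5 other P2 receptors, P2rx1, P2ry4 and P2ry10 failed the filter on dim probes, and neither P2ry13 (−0.03) nor P2ry14 (0.27) was called. Of 4 adenosine receptors, all tested, 0 were called by limma and 0 had an unadjusted p under 0.05. Of the 3 tested genes of ATP release, Panx1, Slc17a9 and Gja1, 0 were called by limma and 2 had an unadjusted p under 0.05.

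All 4 genes of adenosine transport and metabolism passed the test, 2 in each direction. Slc29a2, which encodes the equilibrative nucleoside transporter ENT2, read 0.33, 0.43, 0.34 and 0.51 on uninjured and 1.87, 1.84, 1.68, 1.93 and 1.98 on injured arrays. The groups stood far apart, with a rise of 1.46 on the log2 scale (SE 0.0731, limma adjusted p 5.46e-07), or 2.75-fold. Slc29a1, which encodes its relative ENT1, read −1.30 to −1.09 on uninjured and −1.66 to −1.26 on injured arrays and fell by 0.32 (limma adjusted p 0.0201). Its groups overlapped through injured array 5 alone, and the call was lost without uninjured array 1 (limma adjusted p 0.0573) or 2 (0.0569).

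Adk, the kinase that turns adenosine into AMP, read 1.42 to 1.51 on uninjured and 0.93 to 1.32 on injured arrays and fell by 0.40 (limma adjusted p 0.00915). Ada, the deaminase that turns adenosine into inosine, read −1.09 to −0.76 on uninjured and −0.72 to −0.44 on injured arrays and rose by 0.34 (limma adjusted p 0.0118). Neither gene's groups overlapped. With median centring both calls were lost, at −0.54 for Adk (limma adjusted p 0.0722) and 0.25 for Ada (0.325).

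Among 10 tested enzymes that degrade nucleotides 1 rose and 1 fell. Both make adenosine from AMP at the cell surface. Acpp, prostatic acid phosphatase of small sensory neurons, read 3.49 to 3.71 on uninjured and 3.02 to 3.44 on injured arrays, without overlap, and fell by 0.42 (limma adjusted p 0.00551). Nt5e, the ecto-nucleotidase CD73, read 1.72 to 1.97 on uninjured and 1.93 to 2.34 on injured arrays and rose by 0.32 (limma adjusted p 0.0264). The Nt5e call was lost without uninjured array 2 (limma adjusted p 0.0611) or 4 (0.0789) or injured array 1 (0.0504), 2 (0.0596) or 3 (0.0562), and the average of its probes changed by 0.11 (limma adjusted p 0.309). The Nt5e call was also lost with all spots kept (limma adjusted p 0.0673), median centring (0.441) and Cy5 alone (0.0555). A fixed block for slide left Slc29a2 as the 1 call among these 23 genes, and with slide as a random block 11 of them were called.

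**Figure D5:**
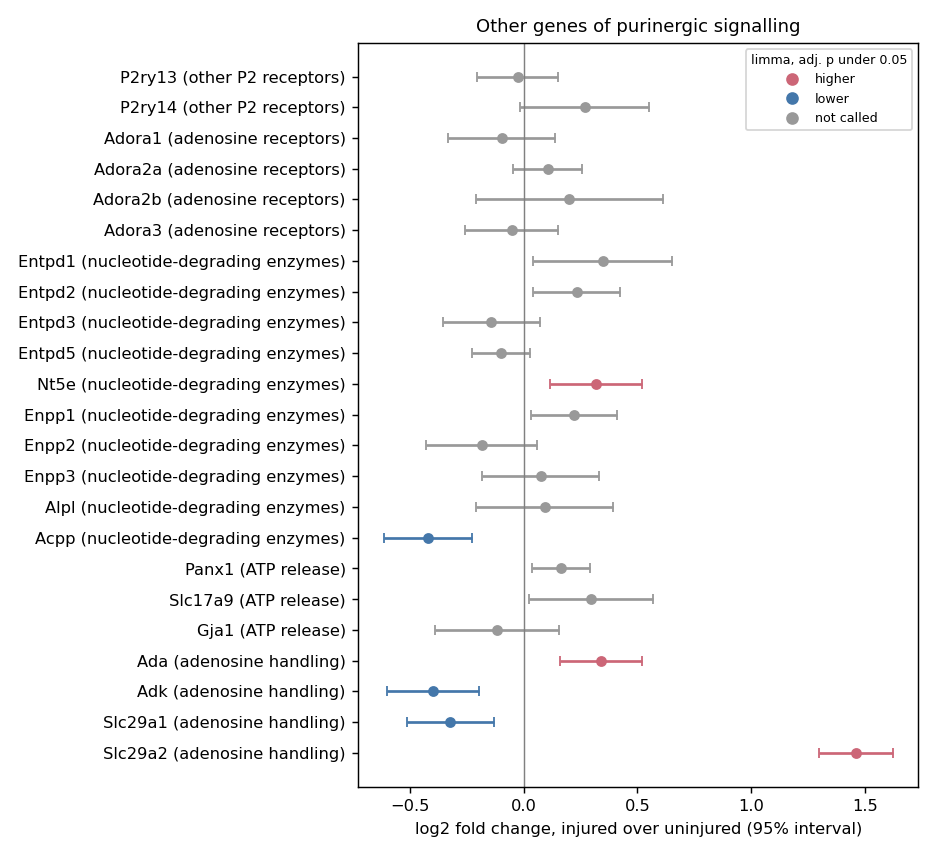
Log2 fold change, injured over uninjured, with its 95% interval for the 23 tested genes of purinergic signalling outside the 10 receptors, in the order of their roles. Slc29a2 stands apart from the rest at 1.46, and the other 5 called genes lie between −0.42 and 0.34.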

How the data were processed

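L3/L4 DRG RNA, from 4 samples without and 5 with nerve injury, was hybridised to 9 Agilent arrays with 2 channels. As deposited, each spot has a mean intensity and a median intensity of its local background in each channel, not normalized. The deposited log10 ratios, made by Agilent's software with its own background model and dye normalization, served as an alternative. So did the log2 ratios of sample over reference that the authors deposited, for which the submitters' notes name limma. The latter had slopes between 0.988 and 0.994 against the values used here.

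limma 3.58.1 (R 4.3.3) was used on the intensities. Spots with an outlier flag (65 to 148 per array) were left out, background was corrected by normexp (offset 50), and loess (span 0.3, control spots at weight 0) and averaging of repeated spots followed. Flagged spots were left out because they pulled the background fit off on 1 injured array, as known from earlier results of these data. The highest local background in Cy5 was 9120 on injured array 2, and the next highest 193.5 on injured array 1. A probe had to be above background in Cy5 on at least 4 of the arrays (31186 of 41174 probes), and the brightest probe was kept per gene. Groups were compared by lmFit and eBayes, with Benjamini-Hochberg adjustment over 20898 genes and a threshold of 0.05. Differences of single values were tested by exact permutation of the arrays (126 splits, two-sided). Probe coordinates are those in the files (mm7), where exons and UTRs were not analysed here. Promoters are from RefSeq (GRCm38.p6). Plots were made in matplotlib 3.10.9 under Python 3.11.15.

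The receptors, gene lists and alternatives were chosen with earlier results of these data known. The genes named are the 10 receptors with all probes, each called gene of the purinergic list (up to 4 per class), Atf3 and markers of the fixed lists. In the list of non-peptidergic nociceptors 1 gene is not reported here and was left out of its counts and mean. Genes that were not called were named from the purinergic classes in which 0 genes passed, after their values were seen. Alternatives were all spots kept, no background correction, an offset of 0, the deposited ratios of either kind, median centring, Cy5 alone, other filters on dim probes, the average of a gene's probes, slide as a fixed or random block, and each array left out in turn. Tested on simulated data for this comparison (20898 genes, 200 changed), the fit found 96.0% of genes changed by 1 (log2) and 66.0% of those changed by 0.5. Of the genes it called, 7.95% had not been changed. The simulated noise was drawn for each gene on its own, without slide effects or shifts shared by many genes, so these rates may not hold for the real arrays. The lowest SD over genes of the difference between 2 arrays of a group was 0.208, so no array was taken for a copy of another.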

Additional observations from a re-analysis of the deposited data

Results flagged for a closer look

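In uninjured DRG, array 2 read 2.68 for P2rx6, above the other 3 arrays at 2.44 to 2.47, and it was singled out because its gap to the nearest array was 0.897 of the group's range. The same array read 0.74 for P2ry12, below the other 3 at 1.08 to 1.13, with a gap of 0.849 of the range. Of 52 groups of values examined in this way 2 stood out, and chance gives about 1 in 20. Without that array the log2 fold change of P2ry12 was −0.06 (limma adjusted p 0.639).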

How the results depend on the processing

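The total of genes called was 5285, against totals of 2657 with median centring, 1187 with slide as a fixed block and 4000 to 5430 without single arrays. With slide as a random block it was 7361, the largest total, so that setting was not a stricter check of the calls. Of the 3 called receptors 1 was left with Agilent's own ratio and 1 with slide as a fixed block (P2rx5 in both), and 2 to 3 without single arrays. Among the other purinergic genes 6 were called, 3 with median centring, 1 with slide as a fixed block, 11 with slide as a random block (whose within-slide correlation was −0.206) and 5 to 6 without single arrays. With slide as a fixed block, which rests on the slide with both groups, the log2 fold changes of P2rx2 (−0.068), P2rx7 (−0.0063) and P2ry12 (−0.10) reversed. P2rx4 reversed with median centring (−0.023), and P2ry12 with all spots kept (−0.11), an offset of 0 (−0.035), and without uninjured array 2 (−0.062) or injured array 1 (−0.00082). Without single arrays P2ry12 ran from −0.062 to 0.081. The P2ry6 call was also lost with an offset of 0 (limma adjusted p 0.0528) and Agilent's own ratio (0.0541). P2ry12 minus P2rx3 reversed with Agilent's own ratio (0.12), P2rx7 minus P2rx3 with all spots kept (0.036), and P2ry12 minus P2rx7 with Agilent's own ratio (0.12) and Cy5 alone (0.019). Without single arrays these differences ran from −0.21 to −0.10, from −0.076 to 0.028 and from −0.19 to −0.07. The cause of these shifts was not tested. No paired analysis was possible because the replicate numbers follow the order of the samples and the labels carry none. The 4 and 5 arrays per group and the dim reference channel of P2ry12 limit the precision.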
